A study of Mus musculus with 4 samples.

Results

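The genes described here encode the machinery that brings proteins into mitochondria. Members were every protein-coding gene of GENCODE M21 with a symbol that begins with Timm or Tomm, plus Pam16, Dnajc19, Grpel1, Hspa9, Hspd1, Hspe1, Pmpca, Pmpcb, Samm50, Chchd4 and Gfer, with at least 20 counts summed over the 4 libraries. The rule named 37 genes, and 35 of them reached the limit, out of 54752 gene identifiers in the table. Timm8a2 had 0 counts in every library, which allows at most 3 counts, or 0.135 to 0.257 CPM (counts scaled to a common library size) of a library total. Tomm6, a small subunit of the outer membrane translocase, lay just outside the limit with 17 counts, 4 and 3 in the Carm1 mutant libraries and 3 and 7 in wild type. Per kb of transcript Tomm6 had 0.304 CPM after TMM scaling (mean of the libraries), against 106 for Tomm5 and 35.8 for Tomm7. Whether the count of Tomm6 reflects the level of its message was not tested. Tomm20l lay just inside the limit with 30 counts.

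The study sequenced RNA from mouse heart at postnatal day 14, with 2 libraries labelled Carm1 mutant and 2 libraries of wild-type mice. Carm1 encodes an arginine methyltransferase that modifies histones and transcriptional coactivators. The labels give neither the allele nor how the gene was disrupted, nor in which cells. They also do not say that each library is a different animal, and the p-values measure no more than the spread between these libraries. Both groups were heart tissue of the same age, although the series text calls the hearts neonatal.

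Nearly all mitochondrial proteins are made in the cytosol and enter through the TOM complex of the outer membrane. From there, precursors with a cleavable presequence pass the TIM23 complex and are pulled into the matrix by an ATP-driven motor, metabolite carriers are inserted by TIM22 with the help of small TIM chaperones, barrel proteins are built in by the SAM complex, and cysteine-rich proteins are trapped by oxidation in the intermembrane space. Heart muscle is packed with mitochondria, and their mass and composition change as the heart matures after birth.

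Library totals ran from 11677604 to 22217442 counts. Carm1 itself had 35.8 and 31.8 CPM after TMM scaling in the mutant libraries, against 45.9 and 52.3 CPM in wild type (log2 fold change −0.54, SE 0.19; edgeR quasi-likelihood FDR 0.114), so its count does not check the label. The sexes were split exactly as the genotypes were. Y-linked Ddx3y had 0.0399 and 0 CPM in the mutant libraries, against 32.9 and 37.8 CPM in wild type, and Xist had 324 and 289 CPM against 0.686 and 0.766 CPM. Genotype and sex therefore cannot be told apart in any comparison below. Counts differed less between the mutant libraries (chi-square per degree of freedom 11.5) than between the wild-type libraries (51.1). Across all tested genes the deviation of wild type replicate 1 from the mean of the libraries ran with transcript length (Spearman's rho −0.34, across genes), with rho from 0 to 0.27 in the other libraries.

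Several import genes were lower in the mutant hearts. Of the 34 members that passed the filter on low counts, 6 fell and 0 rose at an edgeR FDR under 0.05, while 4.58% of all 15283 tested genes fell and 2.79% rose (7.37% together). The 6 were Timm23, Hspd1, Timm17a, Timm29, Tomm70a and Pmpca. At an unadjusted p under 0.05, 20 members were lower and 0 higher, against 14.7% of all genes lower. The median log2 fold change (mutant over wild type) was −0.69, which is 1.62-fold lower, against 0.02 over all genes, and 32 of 34 values were negative, against 48.4% of all genes. Both mutant libraries lay below both wild-type libraries in 24 members, which held for 28.7% of all genes, and above them in 1 member, against 30.3% of all genes.

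**Figure D1:**
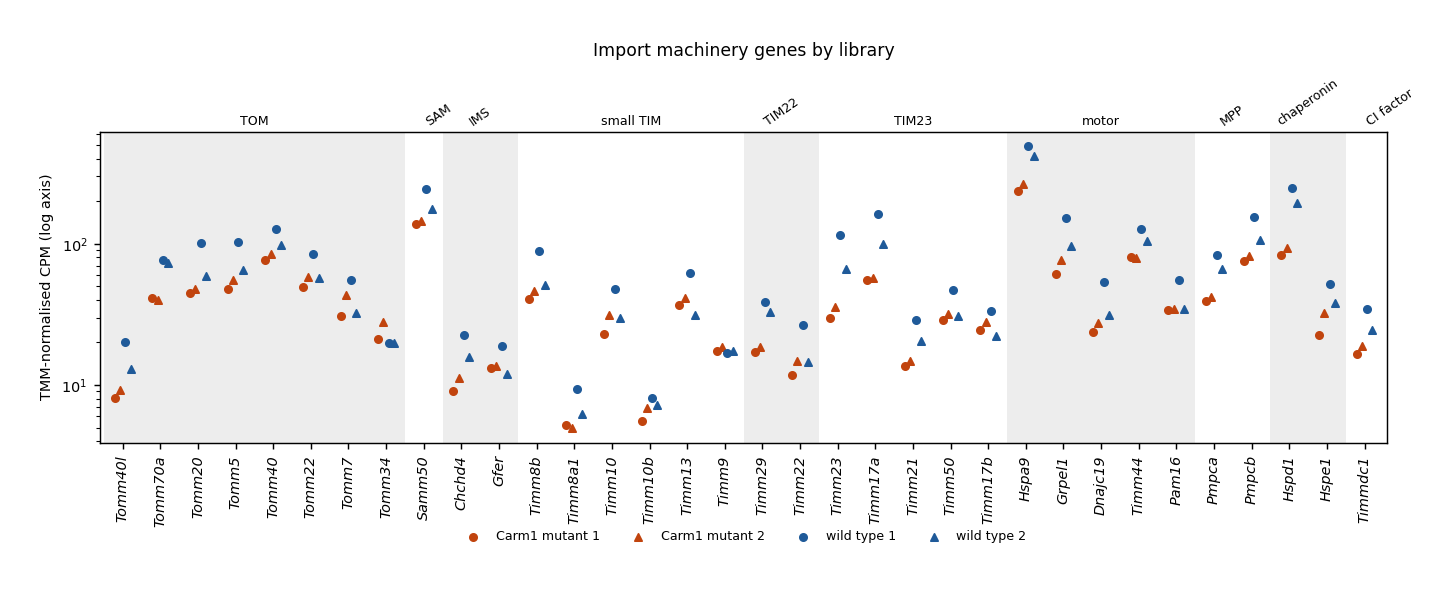
TMM-normalised CPM (log axis) of the 34 tested members in each library, grouped by complex (IMS, intermembrane space oxidation; MPP, presequence peptidase; CI factor, complex I assembly factor). Orange marks are Carm1 mutant libraries and blue marks wild type, circles replicate 1 and triangles replicate 2; wild type replicate 1 is the highest mark for 32 of 34 genes.

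Wild type replicate 1 was the highest library for 32 of the 34 members. It exceeded wild type replicate 2 in 33 members, by a median of 1.5-fold and up to 1.98-fold (Timm13), whereas over all genes the median ratio of the pair was 0.995. The size of the difference therefore depends on that library: without it the median over the members was −0.32, and without wild type replicate 2 it was −0.96. With wild type replicate 1 left out, 7 members fell, against 8.76% of all genes. With wild type replicate 2 left out, 30 fell, against 19.5% of all genes. When mutant replicate 1 was dropped, 0 members fell (1.15% of all genes), and when mutant replicate 2 was dropped, 1 fell, Timm23 (0.987% of all genes). Scaled by library totals alone, 2 members fell (Hspd1 and Timm23), against 1.35% of all genes, and the median was −0.27. DESeq2 called 12 members lower, against 7.16% of all genes, and edgeR without a filter on low counts called 18, against 5.52%.

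The total message for import can also be given as a share of the counts of nuclear genes. This scales each library by that total rather than by TMM, and the share also depends on the counts of all other nuclear genes. Members took 0.24% and 0.264% of the counts of nuclear genes in the mutant libraries, against 0.363% and 0.299% in wild type. The groups did not overlap, and the wild-type libraries were farther apart than the mutant ones.

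Log2 fold changes of general heart muscle markers had the same direction with all libraries, without passing the test. The 9 cardiomyocyte markers, from Myh6 and Tnnt2 to Ryr2, summed to 45962 and 49465 CPM in the mutant libraries, against 90832 and 77296 CPM in wild type. Their median log2 fold change was −0.77 and 0 of 9 were called (edgeR FDR), against 4.58% of all genes lower. Without wild type replicate 1 the median was −0.71. Myl2 alone had overlapping groups, 5654 and 7170 CPM in the mutant libraries against 10016 and 5873 CPM in wild type. Its log2 fold change was −0.31 with all libraries and 0.11 without wild type replicate 1. The 7 fibroblast markers summed to 5242 and 5456 CPM against 3158 and 3673 CPM (median 0.63, 0 called), and the 7 endothelial markers to 2349 and 2058 CPM against 1737 and 1916 CPM (median 0.35, 0 called). Over all genes, 2.79% were called higher. Among the endothelial markers Fabp4 alone was negative (−0.15). Other lists had medians of 0.18 (macrophage), 0.01 (erythroid cell) and −0.02 (smooth muscle cell and pericyte). Each of the 9 heart muscle markers had at least 447 CPM in every library, and of 6 skeletal muscle markers Myh1 and Myh4 were at 0 in every library, while the list summed to 1089 and 1387 CPM in the mutant libraries, against 2393 and 1495 CPM in wild type, most of it Ckm and Acta1, which heart muscle also expresses (0 of 4 tested called). Of 5 atrial muscle markers, Myl7 (log2 fold change −2.04, edgeR FDR 0.0206) and Myl4 (−1.70, edgeR FDR 0.0250) fell and Nppa (1.07, edgeR FDR 0.0447) rose, with a median of −1.41. In bulk tissue, fewer muscle cells and less RNA per muscle cell cannot be told apart, and the part of cell makeup in the import result was not tested.

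**Figure D2:**
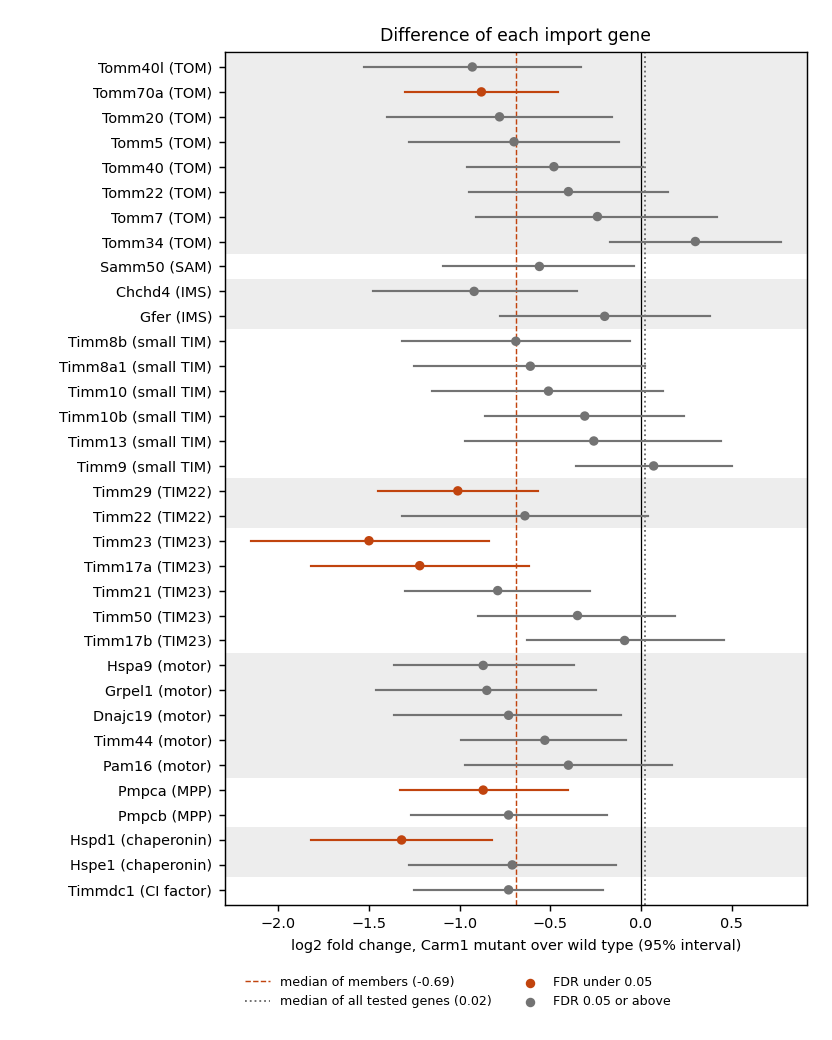
Log2 fold change of each tested member, Carm1 mutant over wild type, with its 95% interval from the edgeR fit. Orange genes passed an FDR of 0.05, grey genes did not; the dashed line is the median of the members (−0.69) and the dotted line that of all tested genes (0.02).

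The TOM complex is the entry gate, with receptors that bind precursors and a barrel-shaped pore. Of 8 tested genes with Tomm symbols, 1 fell, while 4.58% of all genes fell. It was Tomm70a, the receptor that takes hydrophobic precursors such as carriers from cytosolic chaperones. Tomm70a had 41.2 and 39.9 CPM in the mutant libraries, against 76.4 and 72.8 CPM in wild type (log2 fold change −0.88, SE 0.18, edgeR FDR 0.0312). Both wild-type values were close together here, and the change was −0.86 without wild type replicate 1, so this member did not share the spread that most others had. Its call was lost with library totals (−0.48, edgeR FDR 0.124) and with the replicate block (−0.88). The change was −0.91 without mutant replicate 1 and −0.86 without mutant replicate 2. Tomm70a overlaps Nit2 on the other strand, and reads from the pair cannot be assigned with certainty, since the sources used here give no strand setting.

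The presequence receptor Tomm20 had 44.9 and 48.1 CPM in the mutant libraries, against 101 and 58.8 CPM in wild type (log2 fold change −0.78, SE 0.27, edgeR FDR 0.110). Tomm5, a small subunit that was the third most abundant member per length at 106 CPM per kb of transcript (mean of the libraries), had 48.1 and 55.5 CPM against 103 and 65.2 CPM (−0.70, edgeR FDR 0.121). The pore itself, Tomm40, had 76.5 and 84.8 CPM against 127 and 97.4 CPM (−0.48, edgeR FDR 0.187). Groups did not overlap in these genes, but none passed the test.

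Tomm22, the central receptor that holds the complex together, had 49.5 and 58.0 CPM in the mutant libraries, against 85.1 and 57.1 CPM in wild type, and the groups overlapped (−0.40, 95% interval −0.95 to 0.15, edgeR FDR 0.307). Tomm7 overlapped as well (−0.24, edgeR FDR 0.625). Tomm34, which despite its symbol encodes a co-chaperone of the cytosol, was the member with the highest value, 21.2 and 27.8 CPM in the mutant libraries against 19.9 and 19.8 CPM in wild type (0.30, SE 0.20, edgeR FDR 0.381). It is the 1 tested member in which both mutant libraries lay above both wild-type libraries.

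Tomm40l, a second form of the pore, had 8.14 and 9.28 CPM in the mutant libraries, against 20.2 and 12.9 CPM in wild type (−0.93, SE 0.26, edgeR FDR 0.0686). Its share of Tomm40 plus Tomm40l, in counts per kb of transcript, was 3.58% and 3.68% in the mutant libraries, against 5.26% and 4.43% in wild type. Such a share does not depend on scaling between libraries; the groups did not overlap, and the exact permutation p (two-sided) was 0.333, the smallest that 2 libraries a group allow.

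Tomm20l, a relative of Tomm20, was too low for the main test. It had 24 and 5 counts in the mutant libraries, against 1 and 0 in wild type, and reached the limit of the rule only through the mutant libraries. No fold is therefore given, and calls of Tomm20l in other settings are not read as a rise. Its gene overlaps the end of Timm9 on the other strand, so its reads are uncertain.

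Samm50 forms the core of the SAM complex, which inserts barrel proteins such as Tomm40 and the porins into the outer membrane. It had 138 and 145 CPM in the mutant libraries, against 245 and 175 CPM in wild type, without overlap (log2 fold change −0.56, SE 0.23, edgeR FDR 0.157).

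In the intermembrane space, Chchd4 oxidises incoming cysteine-rich proteins and Gfer, a sulfhydryl oxidase, recharges it. Chchd4 had 9.13 and 11.2 CPM in the mutant libraries, against 22.5 and 15.7 CPM in wild type (−0.92, SE 0.24, edgeR FDR 0.0603). Gfer had 13.1 and 13.6 CPM against 18.8 and 12 CPM, with overlapping groups (−0.20, 95% interval −0.78 to 0.38, edgeR FDR 0.647). The difference between these partners was not tested.

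Small TIM proteins escort hydrophobic precursors between the membranes in ring-shaped complexes, Timm9 with Timm10 and Timm8 forms with Timm13. None of 6 passed the edgeR test, against 4.58% of all genes lower, with log2 fold changes from −0.69 to 0.07 and a median of −0.41. Timm8b, the second most abundant member per length at 110 CPM per kb, had 40.8 and 46.2 CPM in the mutant libraries, against 88.9 and 51.2 CPM in wild type (−0.69, SE 0.27, edgeR FDR 0.150). X-linked Timm8a1, the mouse form of the gene lost in human deafness-dystonia syndrome, had 5.22 and 4.93 CPM against 9.38 and 6.23 CPM (−0.61, edgeR FDR 0.191). The share of Timm8b in Timm8b plus Timm8a1 per kb was 95.5% and 96.3% in the mutant libraries, against 96.3% and 95.8% in wild type (exact permutation p = 0.667).

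Timm9 had overlapping groups, 17.3 and 18.6 CPM in the mutant libraries against 16.8 and 17.4 CPM in wild type (0.07, 95% interval −0.36 to 0.50, edgeR FDR 0.844). Its ring partner Timm10 had 22.9 and 31.5 CPM against 47.8 and 29.7 CPM, with overlapping groups (−0.51, edgeR FDR 0.263). Timm13 gave −0.26 with all libraries and 0.29 without wild type replicate 1, where its wild-type values were 61.9 and 31.4 CPM, so its direction rests on that library. Timm10b, which docks the rings on TIM22, had 5.58 and 6.85 CPM in the mutant libraries, against 8.12 and 7.20 CPM in wild type (−0.31, edgeR FDR 0.435).

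TIM22 inserts carriers such as the ADP/ATP exchanger into the inner membrane. Its channel Timm22 had 11.8 and 14.7 CPM in the mutant libraries, against 26.4 and 14.6 CPM in wild type, with overlapping groups (−0.64, SE 0.30, edgeR FDR 0.206). Timm29, a subunit known from animals but not from yeast, fell to 17.1 and 18.6 CPM in the mutant libraries, against 39.0 and 33.0 CPM in wild type (−1.01, SE 0.19, edgeR FDR 0.0256). Without wild type replicate 1 the value was −0.90 (edgeR FDR 0.00425). The call was lost with library totals (−0.61, edgeR FDR 0.0822) and without either mutant library.

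Timm29 is also the direct neighbour of Carm1. On GRCm38 chromosome 9, Carm1 runs from 21546894 to 21592623 and Timm29 from 21592722 to 21595970, both on the plus strand, so the annotated start of Timm29 lies 99 bases beyond the annotated end of Carm1. Yipf2, which overlaps both on the minus strand, had 3.71 and 3.53 CPM in the mutant libraries, against 3.95 and 3.73 CPM in wild type (log2 fold change −0.08, SE 0.27, edgeR FDR 0.873). Whether the altered Carm1 locus has a part in the Timm29 difference was not tested, and the sources used here do not name the allele.

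TIM23 is the channel for presequence proteins, and 2 of its 5 tested subunits fell, while 4.58% of all genes fell. Timm23, the channel subunit, fell to 29.6 and 35.4 CPM in the mutant libraries, against 116 and 66.7 CPM in wild type (log2 fold change −1.50, SE 0.28, edgeR FDR 0.0257), 2.82-fold lower. It was the member with the lowest value and the 1 call kept without mutant replicate 2. Without wild type replicate 1 its change was −1.06. A processed copy, Gm10171, is 100% identical over its length but had only 7 and 10 counts in the mutant libraries, against 15 and 21 in wild type.

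Timm17a, which lines the translocation path with Timm23, fell to 55.6 and 57.1 CPM in the mutant libraries, against 163 and 99.6 CPM in wild type (−1.22, SE 0.26, edgeR FDR 0.0336). Its X-linked sister Timm17b had 24.6 and 27.8 CPM against 33.6 and 22.1 CPM, with overlapping groups (−0.09, 95% interval −0.63 to 0.46, edgeR FDR 0.845). Mammalian TIM23 complexes contain one form or the other. Timm17b made up 57.5% and 59.9% of Timm17a plus Timm17b in the mutant libraries, against 38.7% and 40.4% in wild type, in counts per kb. The difference of 19.2 percentage points exceeded the spread within the groups (SD 1.6 in mutant and 1.2 in wild type, n = 2 each), and it was 18 to 20.3 points with any 1 library left out. The exact permutation p was 0.333, the smallest possible here. On raw counts the shares were 30.7% and 32.8% against 17.1% and 18.1%. The level of Timm17a per kb rests on a transcript model of 7280 bases, so the share per kb depends on that length, whereas the direction on raw counts does not.

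**Figure D3:**
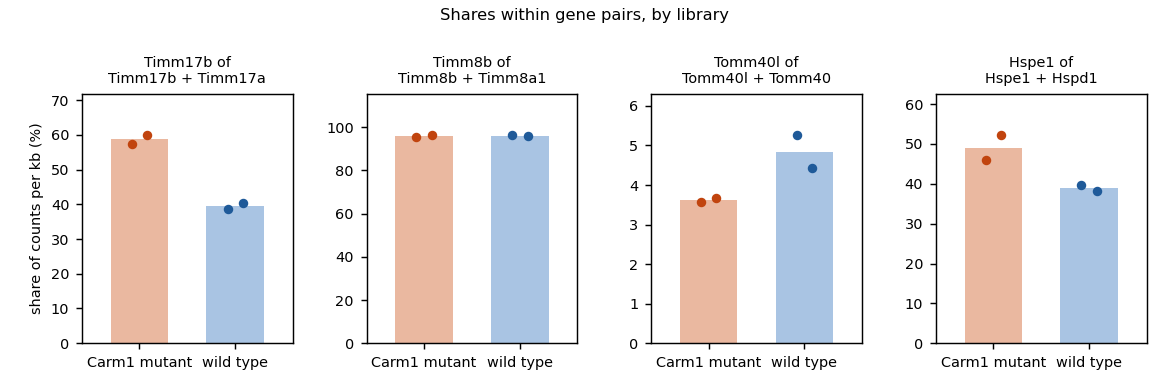
Share of one gene in a pair, in percent of counts per kb of transcript, for 3 paralogue pairs and for the chaperonin pair. Points are libraries and bars are means of 2; Timm17b makes up 57.5% and 59.9% in Carm1 mutant libraries and 38.7% and 40.4% in wild type, while the Timm8b shares overlap.

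The other TIM23 subunits did not pass. Timm21, which links the channel to the respiratory chain, had 13.7 and 14.8 CPM in the mutant libraries, against 28.7 and 20.6 CPM in wild type (−0.79, SE 0.22, edgeR FDR 0.0682). Timm50, the receptor that hands presequences to the channel, had 28.9 and 31.9 CPM against 46.7 and 30.8 CPM (−0.35, 95% interval −0.90 to 0.19, edgeR FDR 0.365).

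At the inner face of the channel sits the import motor, in which Timm44 anchors the heat shock protein Hspa9, Pam16 and Dnajc19 control its ATP cycle and Grpel1 exchanges its nucleotide. All 5 motor genes had both mutant libraries below both wild-type libraries, against 28.7% of all genes, but 0 of 5 passed the edgeR test, against 4.58% of all genes lower (median −0.73). Hspa9, the most abundant member per length at 116 CPM per kb, had 238 and 263 CPM in the mutant libraries, against 495 and 421 CPM in wild type (−0.87, SE 0.21), and just missed the threshold (edgeR FDR 0.0502). It passed with at least 1 CPM in 2 libraries as the filter, without a low-count filter, with DESeq2 and with limma-voom. It also passed after length and GC correction (edgeR FDR 0.0167), but not with library totals (−0.47, edgeR FDR 0.124) or the replicate block (−0.87). The change was −0.76 without wild type replicate 1 and −1.02 without wild type replicate 2. Grpel1 had 60.9 and 76.3 CPM against 152 and 96.0 CPM (−0.85, edgeR FDR 0.0854).

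Dnajc19, whose loss in humans causes a dilated cardiomyopathy with ataxia, had 23.6 and 27.7 CPM in the mutant libraries, against 53.8 and 31.5 CPM in wild type (−0.73, SE 0.27, edgeR FDR 0.127). Timm44 had 80.3 and 79.6 CPM against 127 and 104 CPM (−0.53, edgeR FDR 0.129). Pam16 had 33.8 and 34.5 CPM against 55.7 and 34.6 CPM, so its groups all but touched (−0.40, edgeR FDR 0.325). Dnajc19 overlaps Fxr1 and Pam16 overlaps Glis2 on the other strand, and a 99.1% identical copy of Dnajc19 drew 83 and 47 counts in the mutant libraries, against 122 and 64 in wild type.

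Presequences are cut off in the matrix by a peptidase of 2 subunits. Pmpca, the subunit that recognises the substrate, fell to 39.4 and 42.3 CPM in the mutant libraries, against 83.2 and 66.1 CPM in wild type (−0.87, SE 0.20, edgeR FDR 0.0420). Pmpcb, the catalytic subunit, had 76.1 and 81.4 CPM against 156 and 106 CPM (−0.73, SE 0.23, edgeR FDR 0.0928). The groups were apart in both genes. Pmpca lost its call with library totals (−0.46, edgeR FDR 0.137) and with the replicate block (−0.86). Its change was −0.82 without mutant replicate 1 and −0.93 without mutant replicate 2. Pmpca overlaps Inpp5e on the other strand.

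Hspd1 and Hspe1 form the chaperonin that folds imported proteins, the barrel and its lid. Hspd1 fell to 83.0 and 93.4 CPM in the mutant libraries, against 247 and 194 CPM in wild type (log2 fold change −1.32, SE 0.22, edgeR FDR 0.0192), 2.5-fold lower and the smallest FDR of any member. Hspe1 had 22.5 and 32.5 CPM against 51.7 and 38.2 CPM (−0.71, SE 0.25, edgeR FDR 0.113). In counts per kb Hspe1 made up 45.9% and 52.2% of the pair in the mutant libraries, against 39.6% and 38.2% in wild type, a pair chosen after its values were seen. A 99% identical copy of Hspd1, Hspd1-ps3, had 99 and 101 counts in the mutant libraries, against 364 and 108 in wild type, far below the 2081 and 1268 against 4323 and 3791 counts of Hspd1 itself.

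Timmdc1, a complex I assembly factor that shares a domain with the TIM proteins, came in through its symbol. It had 16.7 and 19.0 CPM in the mutant libraries, against 34.7 and 24.4 CPM in wild type (−0.73, SE 0.23, edgeR FDR 0.0878).

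**Figure D4:**
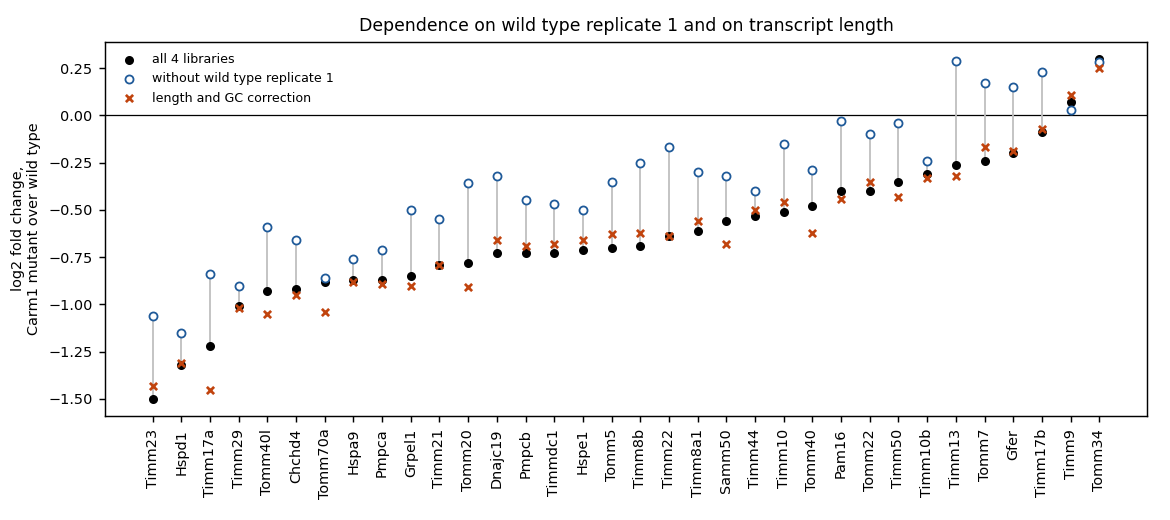
Log2 fold change (Carm1 mutant over wild type) of the 34 tested members with all libraries (black), without wild type replicate 1 (open blue circles) and corrected for length and GC content of the transcript (orange crosses). The values without that library lie nearer to 0 for most genes, with a median of −0.32 against −0.69, and the corrected values lie close to the black points, with a median of −0.65.

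Transcript length was examined because several import genes are short, with a median principal transcript of 1783 bases against 2792 bases over all tested genes. Across the 34 members, which share the same libraries, the ratio of wild type replicate 1 to replicate 2 ran with length at a Spearman's rho of −0.31, and the log2 fold change at −0.44, so that longer transcripts had the more negative values. Corrected for length and GC content, the median was −0.65 and 18 members fell, against 11.5% of all genes. The 6 genes named above were among the 18.

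Promoter sequences are shown for members that fell and for their partners, to place the data beside motifs known from genes of mitochondrial proteins. RefSeq promoters on GRCm38.p6 were matched for 31 of the 35 members and searched on both strands over 250 bases before each start, and a gene counted where any of its listed starts had a match. The ETS factor motif CCGGAAG, bound by the mitochondrial gene regulator GABP among others, was in 13 of 31 members (41.9%) and in 10.17% of 17492 protein-coding genes. The heat shock element, in which GAA and TTC units alternate, was in 3, Hspd1, Hspe1 and Timm9 (9.7% against 0.45%). The ERR half-site AAGGTCA was in 3, Hspd1, Hspe1 and Timm8b (9.7% against 4.18%). Hspd1 and Hspe1 are neighbours with overlapping windows, so each of these counts includes the same stretch of DNA for both genes. Both genes are also in the ETS and GC box counts. The NRF-1 core GCATGCGC was in 2 (6.5% against 3.32%), the CCAAT box CCAAT in 9 (29.0% against 39.48%) and the GC box GGGCGGGG in 9 (29.0% against 24.14%). Member promoters had 60.0% G and C, against 55.5% over all. Members with the ETS motif were Timm23, Tomm70a, Pmpca, Timm29 and Hspd1, which fell, and Grpel1, Hspe1, Pmpcb, Timm8b, Timm10, Timmdc1, Tomm22 and Tomm34, which did not pass the test.

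Each line below gives 30 bases in the direction of the gene, with matches in capitals. Hspd1 and Hspe1 are transcribed away from each other on chromosome 1, with annotated first exons that overlap. The stretch printed lies before the start of Hspe1 and before one of the starts that RefSeq lists for Hspd1, but inside Hspd1 as counted from its other start. The heat shock element there overlaps an ETS match on both strands.
Hspe1, heat shock element, chr1:55088056-55088085, plus strand: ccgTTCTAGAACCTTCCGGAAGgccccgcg
Hspe1, ERR half-site, chr1:55088089-55088118, plus strand: cccgtgggtgaAAGGTCAagtggcgtcatt
Timm23, ETS motif, chr14:32201920-32201949, minus strand: cgcgcttcccaCTTCCGGgccgcacacagc
Tomm70a, ETS motif, chr16:57121684-57121713, plus strand: gtctagcccggcatgccccgggCTTCCGGt
Pmpca, ETS motif, chr2:26389284-26389313, plus strand: ggctcggcgggCCGGAAGccagcgccgaac
Timm29, ETS motif, chr9:21592499-21592528, plus strand: agctctgaccaCTTCCGGgctccactcacc
Timm17a, CCAAT box, chr1:135313804-135313833, minus strand: ggaagagatgctCCAATccccgtccagtag
Timm17b, CCAAT box, chrX:7899306-7899335, plus strand: tacgtaagcagagaagaaCCAATtgttccc
The Timm29 match lies inside the last annotated exon of Carm1. GENCODE starts Tomm70a at 57121703, so its match lies before the RefSeq start used but inside the gene as GENCODE annotates it. The sisters Timm17a and Timm17b both carry a CCAAT box and no ETS match in this window. Hspd1 and Hspe1 share the stretch printed above, and both had negative log2 fold changes (−1.32 and −0.71), of which only that of Hspd1 passed the test. Whether any motif has a part in the differences was not tested.

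Other genes that work with the import machinery were read from lists of partners. Of 79 such genes tested, 10 fell, 0 rose and the median was −0.52, while 4.58% of all genes fell. Lower calls numbered 23 when wild type replicate 1 was dropped (median −0.32), against 8.76% of all genes, and 58 when wild type replicate 2 was, against 19.5%. Dropping mutant replicate 1 left 1 such call, against 1.15% of all genes, and dropping mutant replicate 2 left 0, against 0.987%.

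Among 10 genes of outer membrane insertion and assembly, 2 fell (edgeR FDR), against 4.58% of all genes. Vdac1, the main porin of the outer membrane and a product of SAM, fell to 280 and 283 CPM in the mutant libraries, against 726 and 526 CPM in wild type (−1.15, SE 0.24, edgeR FDR 0.0316), while Mtx2, a metaxin that works with Samm50, had a log2 fold change of −0.93 (edgeR FDR 0.0440). Of 6 genes of inner membrane insertion and carrier import, 1 fell, against 4.58% of all genes. It was Slc25a12, an aspartate-glutamate carrier rather than a part of the machinery (−1.18, edgeR FDR 0.0227). Of 7 partners of the motor and the matrix chaperones, 1 fell and 6 did not pass, against 4.58% of all genes lower. Dnaja3, a co-chaperone of Hspa9, fell to 49.2 and 50.4 CPM in the mutant libraries, against 136 and 108 CPM in wild type (−1.29, SE 0.20, edgeR FDR 0.0169).

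Of 16 presequence and mitochondrial proteases and prohibitins, 4 fell (edgeR FDR), against 4.58% of all genes. They included Clpx, the unfoldase of the matrix protease ClpXP, with 26.2 and 24.7 CPM in the mutant libraries, against 71.4 and 66.1 CPM in wild type (−1.43, SE 0.18, edgeR FDR 0.00988). Pitrm1, which degrades cleaved presequences (−0.87, edgeR FDR 0.0324), and Spg7, a subunit of an inner membrane protease (−0.93, edgeR FDR 0.0372), fell as well. Immt, the core of the MICOS complex that shapes cristae and touches SAM, was the 1 of 7 MICOS genes that fell (−1.19, edgeR FDR 0.0266), against 4.58% of all genes.

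Of 17 cysteine-rich proteins imported through Chchd4, 1 fell, which is close to the share over all genes (4.58%). It was Coa5, a cytochrome oxidase assembly factor (−0.83, edgeR FDR 0.0412). Cytosolic chaperones and precursor carriers had 0 of 16 called by edgeR, against 4.58% of all genes lower. The most abundant per length were Hspa8, with 743 and 874 CPM in the mutant libraries against 1693 and 1184 CPM in wild type (−0.83, edgeR FDR 0.0920), and Hsp90ab1, with 918 and 1027 CPM against 1140 and 1019 CPM (−0.15, edgeR FDR 0.707).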

How the data were processed

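Raw counts per gene were used as the authors deposited them. The submitters' processing notes name FastQC, HISAT2 and build mm10, and no source used here gives the counting program, annotation or strand setting. Columns were matched to samples by title. GENCODE M21 named 54723 of the 54752 identifiers and not the other 29. In edgeR 4.0.16 under R 4.3.3, filterByExpr and TMM scaling preceded a quasi-likelihood test of genotype, which leaves 2 residual degrees of freedom. P-values were adjusted by Benjamini-Hochberg over all 15283 genes tested (FDR). SE is the log2 fold change divided by the square root of F. The common biological coefficient of variation was 0.186. CPM per kb uses the APPRIS principal transcript. Exact tests used SciPy 1.17.1; counting intervals and floors cover counting error only. Pseudogene copies were found with BLAST+ 2.17.0 (identity of 90% or higher, covering 50% or more of a copy). The edgeR test was also run on simulated counts with known changes and the same dispersion in all libraries. Those counts lacked the length-related deviation of wild type replicate 1, so they do not check the calls against it.

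Members and lists were chosen with earlier results of these data known. Values per library are given for members that passed, the 6 most abundant per kb, the 3 lowest and 3 highest changes and 1 to 3 others per complex; for partner lists, up to 3 called genes or the 2 most abundant. Alternatives were other scalings and filters, DESeq2 1.42.0, limma-voom (limma 3.58.1), a length and GC correction, the replicate block and each library left out.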

Additional observations from a re-analysis of the deposited data

How the results depend on the processing

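The 6 lower members were called in every alternative except library totals (2 of 6), the replicate block (4 of 6), and without mutant replicate 1 (0 of 6) or 2 (1 of 6). Over all members, lower calls were 2 with library totals, 18 without a low-count filter and 12 with the DESeq2 Wald test. They were 18 after length and GC correction and from 0 to 30 with a library left out. Higher calls were 1 without a filter and 0 to 1 with a library left out, each time Tomm20l. Tomm20l is counted almost only in the mutant libraries and met the limit of the rule through them, so these calls do not show a rise. The median was −0.27 with library totals and −0.96 to −0.32 with a library left out. Over all genes, lower and higher calls were 206 and 1189 with library totals, 1461 and 1169 without a filter, 1759 and 950 after length and GC correction, 1095 lower with DESeq2, and 156 to 3126 lower and 221 to 2553 higher with a library left out. Library totals turned the sign of Gfer (0.22), Pam16 (0.01), Timm10b (0.09), Timm13 (0.16), Timm17b (0.33), Timm50 (0.06), Tomm22 (0.01) and Tomm7 (0.18). Leaving out a library gave −0.53 to 0.15 for Gfer, −0.71 to 0.29 for Timm13, −0.40 to 0.23 for Timm17b and −0.62 to 0.17 for Tomm7. On raw counts the share difference was 14.1 points for Timm17b and −2.98 for Tomm40l; for Timm8b it ran from −0.481 to 0.226 with a library left out. The cause was not tested.

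Across genes, the deviations of the same-numbered libraries from their group means had a correlation of −0.247. The 2 deviations within a group mirror each other, so oppositely numbered libraries had the same value with the opposite sign. With 2 libraries a group this cannot show whether samples were prepared in pairs, and the labels do not say. With the replicate block 4 members fell (642 genes lower, 580 higher). A crossed block, chosen after seeing the data, gave 21 members, 2139 genes lower and 2037 higher.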
